A study of Mus musculus with 18 samples.

Results

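The genes described here are 32 genes of cholesterol synthesis and of the SREBP (sterol regulatory element-binding protein) pathway, out of 20321 genes listed in the count table. They comprise 8 genes of the mevalonate pathway, 12 enzymes that lead from squalene formation to cholesterol, 7 genes of the SREBP machinery and 5 target genes in sterol transport and fatty acid synthesis. The members were taken from a list of pathway genes, and all 32 were found, Msmo1 under its older symbol Sc4mol. The pathway was chosen because Mvk and Mvd were lower with IWR-1 in unsorted cells in these same data. That contrast, and the comparisons of sorted with unsorted cells, are therefore given as a description. The tests below concern the sorted populations. All 32 members passed the filter on low counts that left 13826 genes for testing, and the lowest expected count of any member in any library was 109.04.

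The cells came from GFP-Bry mouse embryonic stem (ES) cells, a single reporter line in which green fluorescent protein is knocked into the Brachyury locus and so reports early mesoderm. Embryoid bodies of day 3 were dissociated, and Bry+ cells were sorted by endoglin (E, encoded by Eng), which assists TGF-β receptors, and by Flk-1 (F, encoded by Kdr), a receptor of vascular endothelial growth factor. E+F+ cells, E+F- cells and unsorted cells were each left to reaggregate over 24 h in 10 µM IWR-1, an inhibitor of canonical Wnt signalling that acts by keeping Axin stable, or in DMSO, its solvent. The 6 groups were thus E+F+ IWR-1, E+F+ DMSO, E+F- IWR-1, E+F- DMSO, unsorted IWR-1 and unsorted DMSO, with 3 libraries each, labelled Set 1 to Set 3. All groups share the reporter allele and the reaggregation step. The labels do not say what a Set is. The paper states that its RNA-Seq comparison of the sorted fractions used 3 independent biological samples, without saying how they were made. The p-values measure the spread between these libraries, which may be technical in part.

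Cholesterol is made from acetyl-CoA through mevalonate and farnesyl pyrophosphate, which the mevalonate enzymes supply also for protein prenylation, dolichol and ubiquinone. Squalene synthase commits farnesyl pyrophosphate to sterols, and the later enzymes cyclise squalene to lanosterol and trim it to cholesterol. SREBP precursors sit in the endoplasmic reticulum with their escort Scap, held back by the Insig proteins when sterols are plentiful. When sterols run low they are carried to the Golgi, cut by the proteases encoded by Mbtps1 and Mbtps2, and the released fragment enters the nucleus and activates the genes of the pathway, together with NF-Y at CCAAT sequences and Sp1 at GC boxes. In the vertebrate embryo cholesterol is also needed for Hedgehog signalling.

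The libraries held 19725500 to 26649631 expected counts. The first principal component (48.7% of the variance) ran between the E+F- libraries and the E+F+ libraries, with the unsorted ones between them, and the second (17.3%) set the Set 3 libraries of E+F- cells apart from those of Sets 1 and 2. Summed levels of 8 blood and erythroid markers were highest in Set 3 of each group, at 9397 TPM in E+F+ IWR-1 and 4493 TPM in E+F+ DMSO, against 782 to 1607 TPM in the other 4 E+F+ libraries, so counts below are also given without Set 3. TPM is a length-corrected share of the transcripts of a library. Kdr went against the sort labels after reaggregation: it stood at 10.96 ± 2.94 TPM in E+F+ against 46.0 ± 26.1 TPM in E+F- cells under DMSO (SD, n = 3 each), and was lower in E+F+ cells under DMSO (edgeR adjusted p = 0.0235) and under IWR-1 (adjusted p = 0.0457). Eng was at 5.64 ± 1.64 TPM in E+F+ against 5.52 ± 2.55 TPM in E+F- cells. Axin2, a direct target of canonical Wnt signalling, was lower with IWR-1 in E+F- cells (20.02 ± 3.16 TPM with IWR-1 and 68.2 ± 11.1 TPM with DMSO; log2 fold change -1.68 ± 0.18, edgeR adjusted p = 0.000358) and stood at 8.30 ± 2.16 TPM with IWR-1 and 12.8 ± 0.43 TPM with DMSO in E+F+ cells (-0.67 ± 0.19, adjusted p = 0.102). Lef1, another Wnt target, was at 45.8 ± 15.3 TPM in E+F- IWR-1 and 75.1 ± 0.39 TPM in E+F- DMSO (-0.70 ± 0.18, adjusted p = 0.0403, kept in 2 of 6 cases without a single library), and at 6.36 ± 1.30 TPM in E+F+ IWR-1 and 10.13 ± 2.06 TPM in E+F+ DMSO (-0.71 ± 0.20, adjusted p = 0.0974). Of the 6 genes of the Wnt readout, 2 were lower with IWR-1 in E+F+ cells, where 1.27% of all genes tested were. They were Nkd1 (-1.26 ± 0.20, adjusted p = 0.0132, kept in 0 of 6 cases without a single library) and Tcf7 (-0.54 ± 0.11, adjusted p = 0.0312). Such cases are not given for Tcf7, and they left at most 50 of 285 genes below the threshold. In E+F- cells 4 were lower, Nkd1, Tcf7, Axin2 and Lef1, where 3.02% of all genes tested were.

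Because SREBPs act at gene starts, the 250 bases before each start were searched on both strands for CCAAT (bound by NF-Y), GGGCGG (bound by Sp1), the sterol regulatory element in its forms TCACCCCAC and TCACNCCAC, the E-box form TCACGTGA, and CTTTGAT and CTTTGAA (bound by TCF and LEF, the factors of Wnt signalling). The second sterol element includes the first. RefSeq promoters of GRCm38.p6 were at hand for 26 of the 32 members, all but Fdps, Fdft1, Sqle, Stard4, Scd1 and Scd2. CCAAT was found in 21 of the 26 members (80.8%), against 37.5% of all 27025 genes with a promoter and 40.6% of the 10915 among them that were tested here. GGGCGG was also found in 21 of 26, against 35.4% of all and 64% of the tested genes. The sterol element was found in Hmgcs1 only (TCACNCCAC in 1.22% of all genes), TCACGTGA and CTTTGAT in no member (0.907% and 3.72% of all genes), and CTTTGAA in Pmvk (5.19%). A match is a description of the letters, not of a bound site. The following stretches, on the strand of each gene and ending at the base before its RefSeq start, are shown because these genes return in the results below and carry CCAAT singly, in pairs or in a row. Capitals mark CCAAT, written ATTGG where it lies on the opposite strand, and in Hmgcs1 also the sterol element.
Hmgcs1 (chr13:119690201-119690350, plus strand): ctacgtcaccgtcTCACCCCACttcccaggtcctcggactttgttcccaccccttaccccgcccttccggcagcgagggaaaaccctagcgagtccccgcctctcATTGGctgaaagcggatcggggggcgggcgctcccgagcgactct
Mvk (chr5:114444019-114444268, plus strand): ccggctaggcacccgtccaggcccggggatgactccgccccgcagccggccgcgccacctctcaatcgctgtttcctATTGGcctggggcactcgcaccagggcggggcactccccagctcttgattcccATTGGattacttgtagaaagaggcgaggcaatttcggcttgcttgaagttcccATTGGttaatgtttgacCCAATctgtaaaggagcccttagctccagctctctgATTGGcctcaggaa
Mvd (chr8:122443423-122443572, minus strand): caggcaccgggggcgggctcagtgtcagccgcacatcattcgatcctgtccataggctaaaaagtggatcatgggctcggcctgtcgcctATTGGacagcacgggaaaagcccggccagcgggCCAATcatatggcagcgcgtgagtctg
Lss (chr10:76531455-76531604, plus strand): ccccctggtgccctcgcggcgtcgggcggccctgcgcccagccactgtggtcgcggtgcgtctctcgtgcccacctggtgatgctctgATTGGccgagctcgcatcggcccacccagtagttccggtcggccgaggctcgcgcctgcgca
Idi1 (chr13:8885506-8885605, plus strand): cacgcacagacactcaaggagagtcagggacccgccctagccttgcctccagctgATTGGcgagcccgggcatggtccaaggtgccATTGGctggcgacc

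Positions are counted back from the start, with -1 the last base before it, and give the first base of the match on the strand of the gene. Mvk held 5 CCAAT matches, the most of any member. Of these, 4 lay on the opposite strand at -173, -120, -67 and -14, each 53 bases from the next, and the fifth on its own strand at -50. The sequence around them did not repeat in the same way: shifted by 53 bases, 69 of 197 bases of the stretch were identical to themselves (35%). Mvd held CCAAT at -60 and -27, Idi1 at -45 and -14, and Lss at -62. In Hmgcs1 the sterol element lay at -137 and the nearest CCAAT to the start at -45. The members without CCAAT in this window were Acat2, Scap, Mbtps1, Mbtps2 and Acaca.

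**Figure D1:**
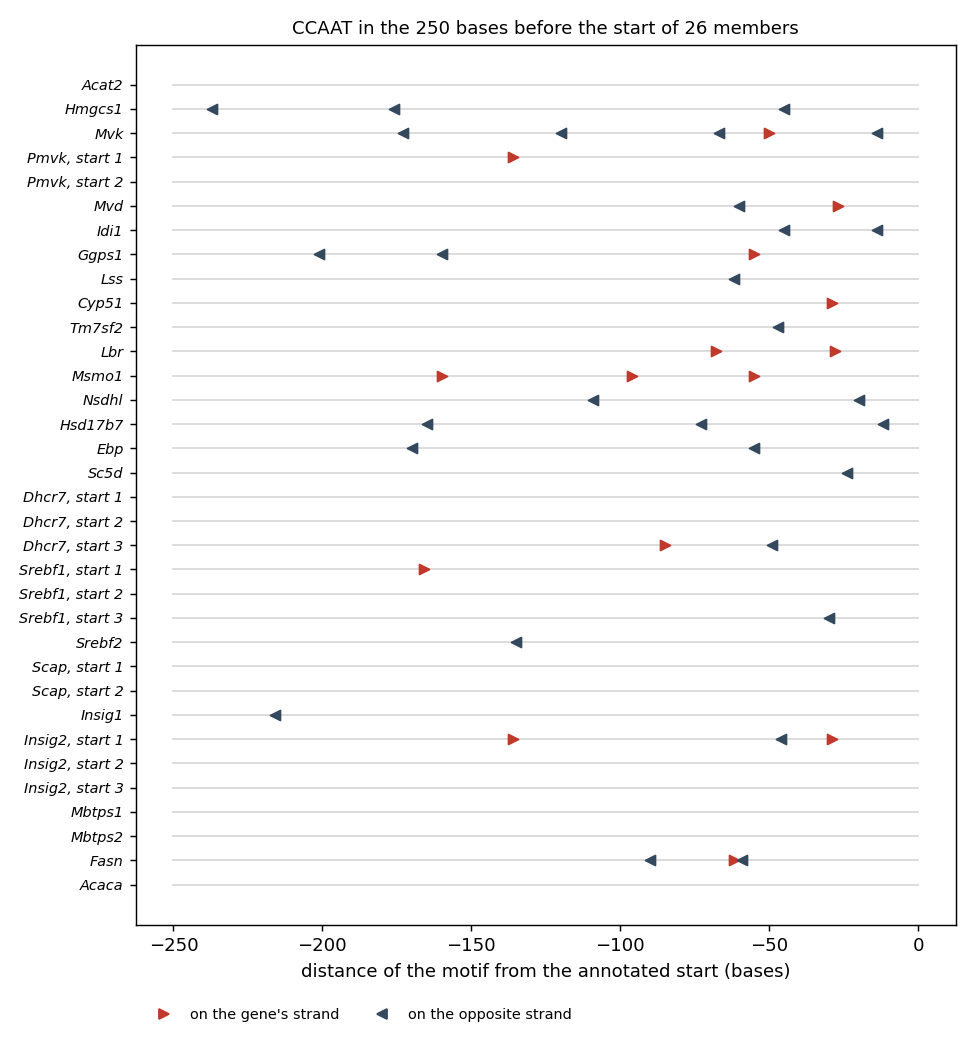
Positions of CCAAT in the 250 bases before the start of 26 members, 1 row per gene or, for genes with several annotated starts, per start. The horizontal axis is the distance from the start in bases, and triangles pointing right and left mark matches on the gene's own strand and on the opposite strand. Mvk shows 4 evenly spaced matches on the opposite strand, and the rows of Acat2, Scap, Mbtps1, Mbtps2 and Acaca are empty.

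The members spanned a wide range of levels. In E+F+ cells under DMSO, group means ran from 9.66 TPM for Mbtps2 to 685 TPM for Scd2, with a median over the 32 members of 89.5 TPM. The median was 46.7 TPM in E+F- DMSO and 90.4 TPM in unsorted DMSO cells. It was 68.1 TPM in E+F+ IWR-1, 40.6 TPM in E+F- IWR-1 and 52.5 TPM in unsorted IWR-1 cells. Levels of genes whose exons share bases with another coding gene, which are Fdps, Ggps1, Fdft1, Cyp51, Tm7sf2, Lbr, Srebf1 and Mbtps2, may hold reads of that neighbour, since the libraries do not keep strand. Acat2 and Acat3, and Scd1 and Scd2, are related genes, and how many reads they share was not measured. In these bulk libraries fewer cells of a type and less RNA per cell cannot be told apart.

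Summed over the 8 mevalonate and 12 later enzymes, transcript levels were 2218, 1812 and 1796 TPM in E+F+ IWR-1 (Sets 1, 2 and 3), against 3010, 2702 and 2437 TPM in E+F+ DMSO. The sums were 1103, 961 and 1177 TPM in E+F- IWR-1, against 1406, 1224 and 1350 TPM in E+F- DMSO. They were 1477, 1754 and 1473 TPM in unsorted IWR-1, against 2857, 3222 and 2096 TPM in unsorted DMSO. In every Set of E+F+ and E+F- cells the IWR-1 library had the lower sum, and in neither population did the IWR-1 and DMSO sums overlap. The same held in unsorted cells, where it is a description, since the pathway was chosen on that contrast. How often sums of other genes behave so was not tested. The IWR-1 sum was 73.7%, 67.1% and 73.7% of its DMSO partner in E+F+ cells, 78.4%, 78.5% and 87.2% in E+F- cells, and 51.7%, 54.4% and 70.3% in unsorted cells. The mean E+F+ sum was 1.8-fold the mean E+F- sum under IWR-1 and 2.05-fold under DMSO.

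**Figure D2:**
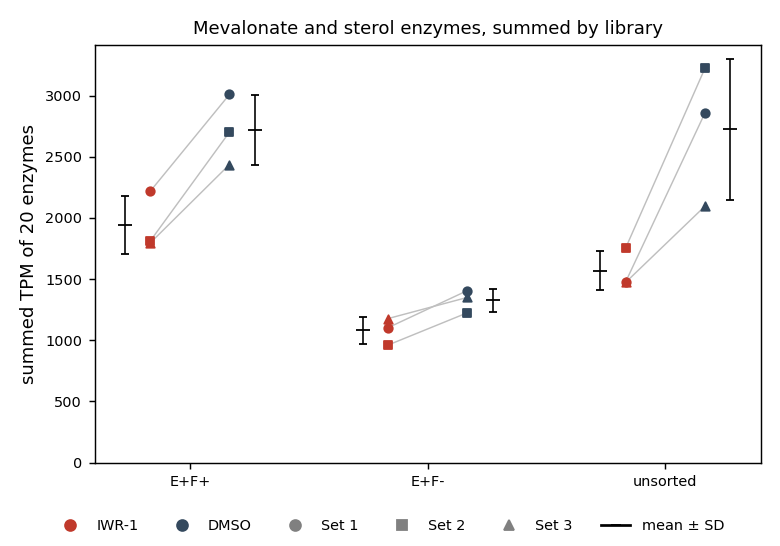
Summed TPM of the 20 mevalonate and sterol enzymes in each of the 18 libraries, by population, with IWR-1 (red) left of DMSO (blue); symbols mark the Sets, lines join libraries of a Set, and bars give mean ± SD (n = 3). Every line is lower at its IWR-1 end, and the E+F- libraries, at 961 to 1406 TPM, lie below all others. The unsorted values are a description, since the pathway was chosen on that contrast.

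The first comparison set E+F+ reaggregates against E+F- reaggregates under DMSO, to ask how the pathway stands in each without the inhibitor. Transcripts of most enzymes of cholesterol synthesis were more abundant in E+F+ cells. Of the 32 members, 22 were higher and 1, Ebp, was lower (edgeR quasi-likelihood test, Benjamini-Hochberg adjusted p under 0.05, which is what "called" means throughout). Of all genes tested, 26.6% were called, 12.8% higher and 13.8% lower. The median log2 difference was 1.13 over the members and -0.01 over all genes tested. The count of members higher was 21 when any single library was left out, with Srebf2, Cyp51 or both losing their calls, and 22 without Set 3.

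Among the mevalonate enzymes 7 of 8 were higher in E+F+ cells, all but Ggps1, which makes the geranylgeranyl group for protein prenylation and stands beside the sterol branch. Mvk, mevalonate kinase, was at 91.3, 88.6 and 89.6 TPM in E+F+ DMSO, against 40.2, 36.8 and 45.4 TPM in E+F- DMSO (log2 difference 1.26 ± 0.16 SE, adjusted p = 8.84e-05). Mvd, which decarboxylates mevalonate pyrophosphate, was at 165, 143 and 140 TPM in E+F+ DMSO, against 56.6, 47.1 and 57.5 TPM in E+F- DMSO (1.59 ± 0.21, adjusted p = 0.000121). For both genes every E+F+ library lay well above every E+F- library. Fdps, farnesyl pyrophosphate synthase, with the most abundant transcript of the group, was at 595 ± 61.0 TPM in E+F+ against 236 ± 26.9 TPM in E+F- cells (SD, n = 3 each). Hmgcs1, which makes HMG-CoA, was at 356 ± 70.7 TPM in E+F+ against 176 ± 5.91 TPM in E+F- cells, and Acat2, which condenses acetyl-CoA, at 248 ± 16.4 TPM in E+F+ against 113 ± 18.9 TPM in E+F- cells. Pmvk, the second kinase, and Idi1, the isomerase, were higher by 1.13 ± 0.19 and 1.26 ± 0.19 on the log2 scale. Ggps1 stood at 15.5 ± 0.75 TPM in E+F+ against 19.4 ± 0.48 TPM in E+F- cells (-0.21 ± 0.11, adjusted p = 0.149).

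From squalene to cholesterol, 9 of 12 enzymes were higher in E+F+ cells and 1 was lower. Sqle, squalene epoxidase, was at 183, 152 and 149 TPM in E+F+ DMSO, against 81.9, 68.7 and 84.1 TPM in E+F- DMSO (log2 difference 1.16 ± 0.13, adjusted p = 3.92e-05). Lss, lanosterol synthase, was at 87.1, 75.9 and 74.5 TPM in E+F+ DMSO, against 29.2, 28.3 and 31.5 TPM in E+F- DMSO (1.53 ± 0.18, adjusted p = 5.6e-05). Nsdhl, a dehydrogenase that helps remove the methyl groups of lanosterol, was at 71.9, 61.4 and 61.9 TPM in E+F+ DMSO, against 28.6, 26.4 and 30.3 TPM in E+F- DMSO (1.31 ± 0.16, adjusted p = 7.71e-05). These 3 genes had the smallest adjusted p-values of all members here. Tm7sf2, a sterol reductase, showed the largest difference of the members (1.78 ± 0.30), at 39.1 ± 3.15 TPM in E+F+ against 12.4 ± 2.92 TPM in E+F- cells. Dhcr7, which makes the last reduction to cholesterol, was higher by 1.57 ± 0.21, Msmo1, the methyl sterol oxidase, by 1.41 ± 0.18, Fdft1, squalene synthase, by 1.19 ± 0.19, Sc5d, the sterol desaturase, by 1.00 ± 0.16, and Cyp51, the lanosterol demethylase, by 0.69 ± 0.20.

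Ebp, the sterol isomerase that works between these enzymes, went the other way. It was at 27.7, 25.6 and 18.8 TPM in E+F+ DMSO, against 47.4, 39.8 and 41.6 TPM in E+F- DMSO (-0.73 ± 0.17, adjusted p = 0.00556). Hsd17b7, the ketosteroid reductase of the pathway, and Lbr, the lamin B receptor, which is a sterol reductase as well as a protein of the nuclear envelope, were not called. Hsd17b7 stood at 12.9 ± 1.23 TPM in E+F+ against 14.9 ± 3.59 TPM in E+F- cells, and Lbr at 127 ± 11.3 TPM in E+F+ against 124 ± 12.0 TPM in E+F- cells.

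Of the 7 genes of the SREBP machinery, 2 were higher in E+F+ cells, and both are themselves SREBP targets. Insig1, the sterol-sensing anchor, was at 124 ± 12.1 TPM in E+F+ against 62.2 ± 1.57 TPM in E+F- cells (1.11 ± 0.22, adjusted p = 0.00189). Srebf2, which encodes the SREBP that governs sterol genes, was at 122, 144 and 131 TPM in E+F+ DMSO, against 77.4, 108 and 102 TPM in E+F- DMSO (0.58 ± 0.18, adjusted p = 0.0274), a call kept in 2 of 6 cases when a single library was left out and lost with limma on log2 TPM. Srebf1, whose products favour fatty acid genes, was at 41.6 ± 3.14 TPM in E+F+ against 31.7 ± 10.5 TPM in E+F- cells, with overlapping groups (adjusted p = 0.101). The escort Scap stood at 21.6 ± 0.95 TPM in E+F+ against 29.4 ± 4.50 TPM in E+F- cells (-0.32 ± 0.13, adjusted p = 0.0863). Insig2 and the proteases Mbtps1 and Mbtps2 had log2 differences of 0.12, -0.15 and 0.09. Among the transport and fatty acid genes 4 of 5 were higher. Scd1 and Scd2, stearoyl-CoA desaturases, were higher by 1.68 ± 0.26 and 1.17 ± 0.20, Stard4, a carrier of sterol between membranes, by 1.18 ± 0.19, and Acaca, acetyl-CoA carboxylase, by 0.84 ± 0.15. Fasn, fatty acid synthase, was at 104 ± 8.28 TPM in E+F+ against 83.9 ± 10.6 TPM in E+F- cells (0.43 ± 0.18, adjusted p = 0.0857).

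The 2 populations differed widely in cell type markers too. The summed level of 7 markers of streak and presomitic mesoderm was 2.37 to 4.49 TPM in E+F+ DMSO and 718 to 1328 TPM in E+F- DMSO, and Msgn1 was listed at 0 in all 3 E+F+ libraries. The 5 pluripotency markers summed to 12.5 to 25.5 TPM in E+F+ DMSO and 83.3 to 378 TPM in E+F- DMSO, and the 8 blood markers to 782 to 4493 TPM in E+F+ DMSO and 8.67 to 169 TPM in E+F- DMSO. The 6 proliferation genes summed to 1642 to 1684 TPM in E+F+ DMSO and 1767 to 1871 TPM in E+F- DMSO. The part of cell composition in the difference of the members was not tested.

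Under IWR-1 the same 2 populations were compared in the other 6 libraries. Here 20 members were higher in E+F+ cells and Ebp was again lower (22.5% of all genes tested were called, 10.4% higher and 12.1% lower), with a median log2 difference of 0.80 over the members and -0.01 over all genes. Msmo1 was at 182, 150 and 145 TPM in E+F+ IWR-1, against 63.1, 56.2 and 80.2 TPM in E+F- IWR-1 (1.28 ± 0.18, adjusted p = 0.000313). Lss was at 64.2, 43.0 and 51.2 TPM in E+F+ IWR-1, against 25.4, 19.2 and 27.5 TPM in E+F- IWR-1 (1.15 ± 0.18, adjusted p = 0.000559). Mvk was at 68.1, 47.2 and 53.9 TPM in E+F+ IWR-1, against 26.7, 25.0 and 33.0 TPM in E+F- IWR-1 (1.01 ± 0.16, adjusted p = 0.000599). None of these groups overlapped. Sqle was at 134, 106 and 108 TPM in E+F+ IWR-1, against 65.9, 57.6 and 76.8 TPM in E+F- IWR-1 (0.81 ± 0.13, adjusted p = 0.000659). Ebp was at 22.3, 17.3 and 15.9 TPM in E+F+ IWR-1, against 30.3, 28.0 and 37.2 TPM in E+F- IWR-1 (-0.76 ± 0.17, adjusted p = 0.00505). Cyp51 (0.31 ± 0.20, adjusted p = 0.285) and Srebf2 (0.37 ± 0.18, adjusted p = 0.162) did not pass here. The count of members higher was 18 to 20 without any single library and 19 without Set 3.

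**Figure D3:**
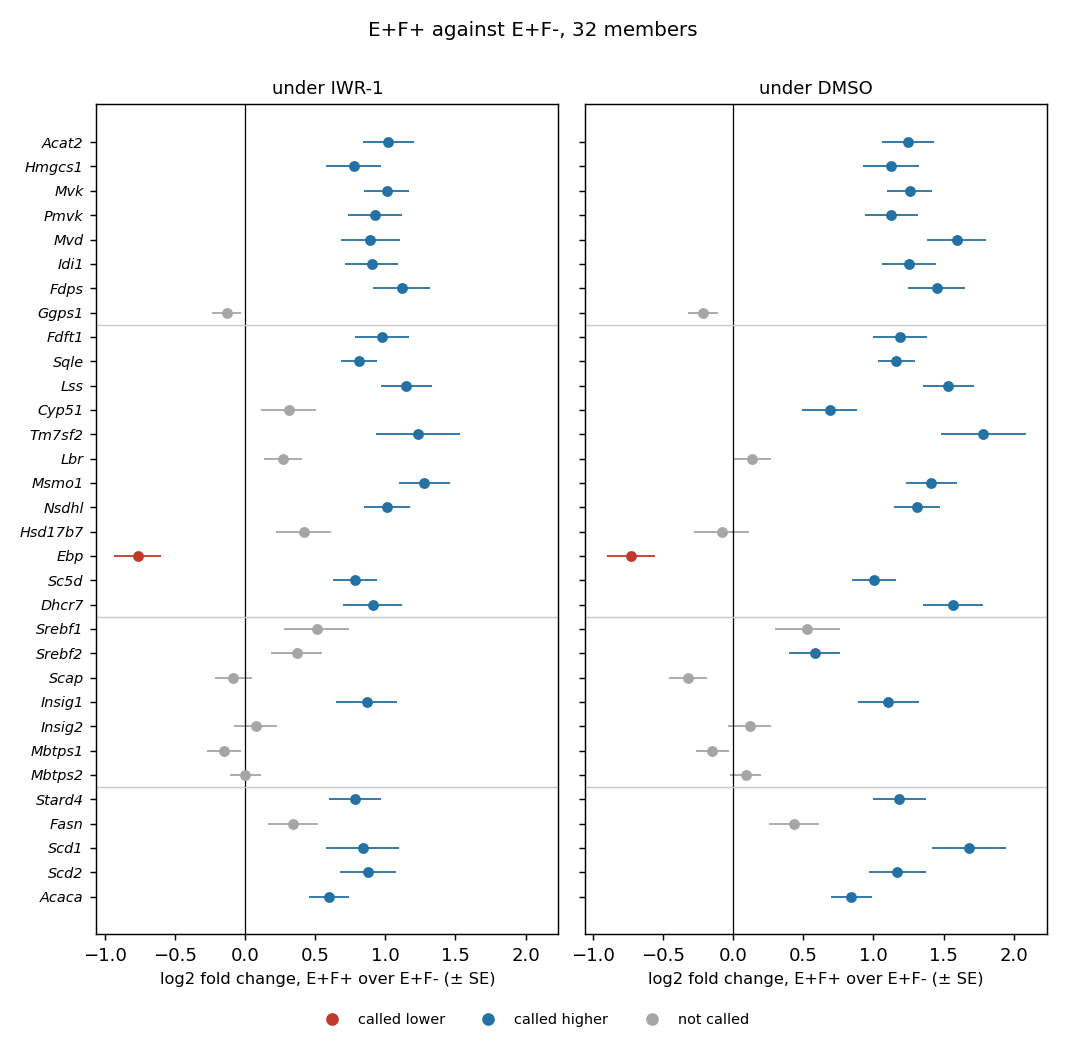
Log2 fold change ± SE of E+F+ over E+F- for the 32 members, under IWR-1 (left) and under DMSO (right), with grey lines between the mevalonate genes, the later enzymes, the SREBP machinery and the other targets. Blue points were called higher, red lower and grey were not called. Most enzymes lie to the right of 0, Ebp alone is red in both panels, and most of the SREBP machinery lies near 0.

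The next comparison asked what IWR-1 did to the pathway within E+F+ cells, with each IWR-1 library paired with the DMSO library of its Set. Here 10 of 32 members were lower and 0 higher, where 2.06% of all genes tested were called, 1.27% lower and 0.796% higher. At an unadjusted p under 0.05, 21 members were lower and 0 higher (17.4% of all genes, in either direction), and DESeq2 called 12 lower and 0 higher. The median log2 fold change was -0.36 over the members and 0.01 over all genes. In all 3 Sets 24 members were lower with IWR-1 and 0 higher, and 21.4% of all genes were lower in all 3. In 13 members every IWR-1 library lay below every DMSO library, as in 5.91% of all genes.

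The mevalonate pathway had 5 of its 8 genes lower with IWR-1 in E+F+ cells. Mvd was at 95.1, 61.6 and 72.6 TPM in E+F+ IWR-1, against 165, 143 and 140 TPM in E+F+ DMSO (-1.004 ± 0.11, adjusted p = 0.00273), the largest fall of the members. Mvk was at 68.1, 47.2 and 53.9 TPM in E+F+ IWR-1, against 91.3, 88.6 and 89.6 TPM in E+F+ DMSO (-0.71 ± 0.11, adjusted p = 0.0131). For both genes every IWR-1 library lay below every DMSO library, and the Set 2 library was the lowest. Fdps was at 469, 366 and 387 TPM in E+F+ IWR-1, against 664, 572 and 548 TPM in E+F+ DMSO (-0.57 ± 0.09, adjusted p = 0.0131). Acat2 was at 192, 164 and 160 TPM in E+F+ IWR-1, against 266, 245 and 234 TPM in E+F+ DMSO (-0.55 ± 0.09, adjusted p = 0.0167). Hmgcs1 was at 297, 270 and 211 TPM in E+F+ IWR-1, against 404, 390 and 275 TPM in E+F+ DMSO (-0.47 ± 0.09, adjusted p = 0.0238), with overlapping groups but a lower value in each Set. Pmvk (-0.48 ± 0.12, adjusted p = 0.0689) and Idi1 (-0.37 ± 0.12, adjusted p = 0.148) did not pass, and Ggps1 was at 16.3 ± 0.84 TPM in E+F+ IWR-1 against 15.5 ± 0.75 TPM in E+F+ DMSO (0.05, 95% interval -0.12 to 0.22).

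Of the 12 later enzymes, 5 were lower and all 12 fold changes were negative, between -0.83 and -0.17. Sqle was at 134, 106 and 108 TPM in E+F+ IWR-1, against 183, 152 and 149 TPM in E+F+ DMSO (-0.50 ± 0.07, adjusted p = 0.00992). Nsdhl was at 48.5, 41.5 and 43.5 TPM in E+F+ IWR-1, against 71.9, 61.4 and 61.9 TPM in E+F+ DMSO (-0.57 ± 0.09, adjusted p = 0.0114). Dhcr7 was at 54.3, 44.6 and 42.7 TPM in E+F+ IWR-1, against 78.1, 76.7 and 72.0 TPM in E+F+ DMSO (-0.71 ± 0.11, adjusted p = 0.0114). These enzymes of the start, the middle and the end of the sterol branch showed no overlap between treatments. Lss was at 64.2, 43.0 and 51.2 TPM in E+F+ IWR-1, against 87.1, 75.9 and 74.5 TPM in E+F+ DMSO (-0.62 ± 0.10, adjusted p = 0.0115). Cyp51 was at 74.7, 64.5 and 57.0 TPM in E+F+ IWR-1, against 103, 90.2 and 73.8 TPM in E+F+ DMSO (-0.46 ± 0.10, adjusted p = 0.0438), where the groups overlapped. Tm7sf2 had a large fold change with a wide error (-0.83 ± 0.19, adjusted p = 0.0539). The other 6, Fdft1, Lbr, Msmo1, Hsd17b7, Ebp and Sc5d, had fold changes of -0.41 to -0.17 and adjusted p-values of 0.105 to 0.301.

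The transcripts of the SREBP machinery itself gave 0 of 7 calls in E+F+ cells, with edgeR and with DESeq2, and 1 at an unadjusted p under 0.05, Insig1, which a fit of only the E+F+ libraries called lower. Srebf2 was at 119, 119 and 119 TPM in E+F+ IWR-1, against 122, 144 and 131 TPM in E+F+ DMSO (-0.16, 95% interval -0.34 to 0.01), close values that did not overlap. Srebf1 was at 50.1 ± 12.5 TPM with IWR-1 and 41.6 ± 3.14 TPM with DMSO (0.22, interval -0.09 to 0.53), and Scap at 22.4 ± 4.61 TPM with IWR-1 and 21.6 ± 0.95 TPM with DMSO (0.01, interval -0.19 to 0.22). Insig1 was at 102 ± 13.3 TPM with IWR-1 and 124 ± 12.1 TPM with DMSO (-0.31 ± 0.13, adjusted p = 0.235). Insig2, Mbtps1 and Mbtps2 had intervals within -0.16 to 0.24. The 5 transport and fatty acid genes gave no call either with edgeR or DESeq2 (2 lower at an unadjusted p under 0.05), although the fit of only the E+F+ libraries called Scd1 lower, with fold changes of -0.37 for Scd1, -0.28 for Stard4, -0.11 for Acaca, -0.06 for Fasn and -0.05 for Scd2. Scd1 was at 87.8, 64.8 and 59.9 TPM in E+F+ IWR-1, against 99.2, 92.3 and 78.0 TPM in E+F+ DMSO.

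These calls in E+F+ cells rest on the pairing of libraries within a Set and on all 3 pairs. Without the Set block 0 members and 0 of all genes were called (edgeR; 14 members lower at an unadjusted p under 0.05), and with 1 Set term shared by all populations 0 members and 9 genes. Leaving out any of the 6 E+F+ libraries, which breaks its pair, left 2 members called (without Set 1 of either treatment), 0 (Set 2) or 1 (Set 3). Mvd kept its call without Set 1 or Set 3 and Mvk without Set 1. Without all Set 3 libraries 7 members were lower, and Acat2, Mvk and Dhcr7 lost their calls. Under none of these settings did a called member change sign. Beside these values, the 9 endoderm markers summed to 232 to 397 TPM in E+F+ IWR-1 and 163 to 286 TPM in E+F+ DMSO, nearly all of it Apoe, a lipid carrier of many cell types, while Foxa2, Sox17, Afp, Ttr, Apoa1, Apob, Cubn and Amn had group means of at most 1.37 TPM. The 8 blood markers summed to 1378 to 9397 TPM in E+F+ IWR-1 and 782 to 4493 TPM in E+F+ DMSO, and the 6 proliferation genes to 1718 to 1851 TPM in E+F+ IWR-1 and 1642 to 1684 TPM in E+F+ DMSO. The part of these markers in the fall of the members was not tested.

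**Figure D4:**
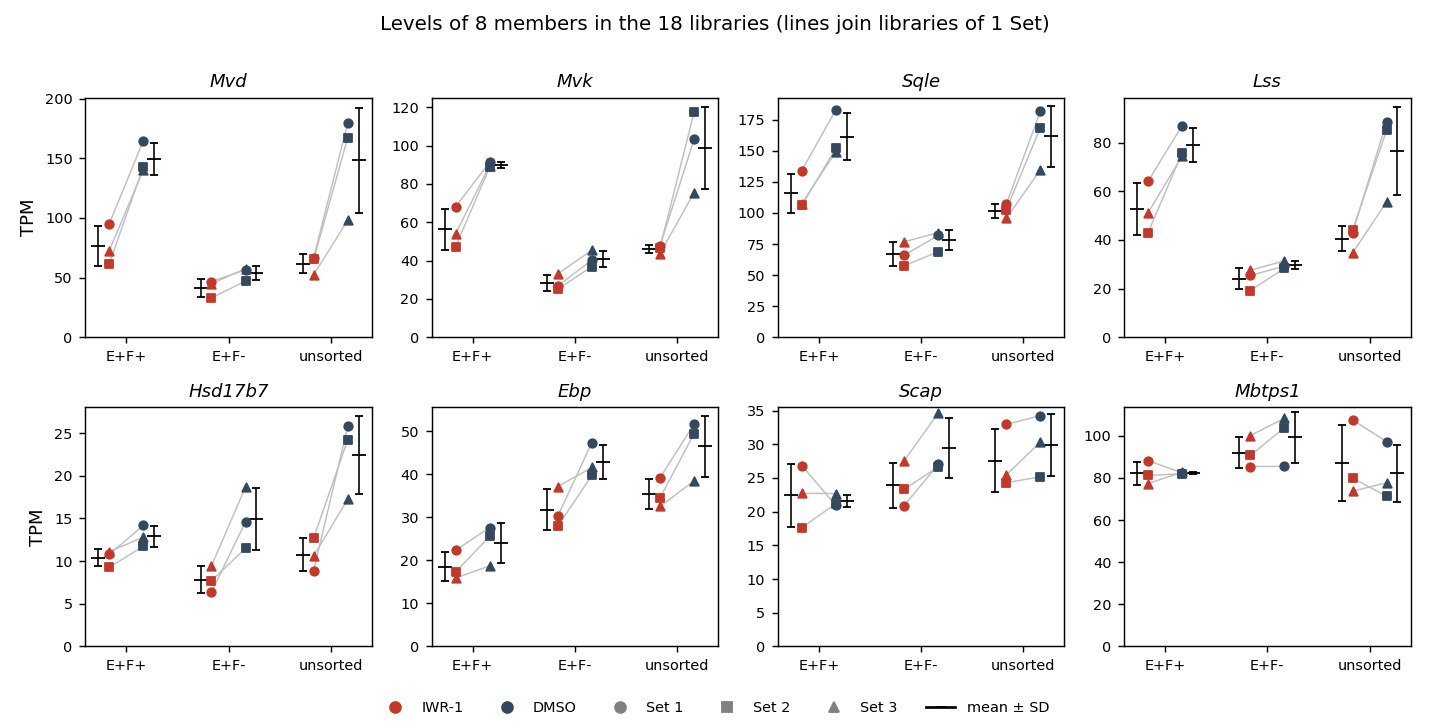
TPM of 8 members in the 18 libraries, by population, with IWR-1 (red) left of DMSO (blue); symbols mark the Sets, lines join libraries of a Set, and bars give mean ± SD (n = 3). Mvd, Mvk, Sqle and Lss are lower with IWR-1 in each E+F+ Set and by group mean lowest in E+F- cells, Hsd17b7 is lower with IWR-1 in each Set of E+F- cells, Ebp is by group mean lowest in E+F+ cells, and Scap and Mbtps1 of the SREBP machinery overlap between treatments in E+F+ cells.

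In E+F- cells the same comparison gave calls for Hsd17b7, Lbr and Mvk. Of 32 members, these 3 were lower with IWR-1 and 0 higher, where 6.48% of all genes tested were called, 3.02% lower and 3.46% higher. At an unadjusted p under 0.05, 9 members were lower and 1 higher (21.3% of all genes, in either direction), and DESeq2 called 3 lower and 1, Scd1, higher. The median log2 fold change was -0.13 over the members and 0.01 over all genes. Hsd17b7 was at 6.39, 7.69 and 9.45 TPM in E+F- IWR-1, against 14.6, 11.5 and 18.7 TPM in E+F- DMSO (-0.83 ± 0.16, adjusted p = 0.00989). Lbr was at 97.5, 91.5 and 95.3 TPM in E+F- IWR-1, against 138, 119 and 116 TPM in E+F- DMSO (-0.30 ± 0.07, adjusted p = 0.0296). Mvk was at 26.7, 25.0 and 33.0 TPM in E+F- IWR-1, against 40.2, 36.8 and 45.4 TPM in E+F- DMSO (-0.45 ± 0.12, adjusted p = 0.0446). All 3 were lower in every Set with no overlap between treatments. In E+F- cells 10 members in all had every IWR-1 library below every DMSO library, as had 11.7% of all genes.

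The other 17 enzymes did not pass in E+F- cells. Mvd was at 46.7, 33.0 and 44.8 TPM in E+F- IWR-1, against 56.6, 47.1 and 57.5 TPM in E+F- DMSO (-0.29 ± 0.11, adjusted p = 0.152). Acat2, at 89.9, 87.1 and 77.7 TPM in E+F- IWR-1 against 135, 105 and 99.6 TPM in E+F- DMSO (-0.31 ± 0.09, adjusted p = 0.0795), and Ebp (-0.35 ± 0.11, adjusted p = 0.0854) came closest to the threshold. Sqle was at 66.8 ± 9.65 TPM with IWR-1 and 78.2 ± 8.33 TPM with DMSO, Fdps at 190 ± 22.9 TPM with IWR-1 and 236 ± 26.9 TPM with DMSO, and Dhcr7 at 30.6, 19.4 and 26.1 TPM in E+F- IWR-1 and 27.5, 28.9 and 26.3 TPM in E+F- DMSO (-0.05, 95% interval -0.27 to 0.17). All 20 enzymes had negative fold changes, from -0.83 to -0.01. The SREBP machinery had 0 of 7 calls with edgeR and with DESeq2, and 0 at an unadjusted p under 0.05, with fold changes of -0.21 (Scap) to 0.28 (Srebf1). The 5 transport and fatty acid genes had positive fold changes, from 0.05 (Fasn) to 0.46 (Scd1), and none was called by edgeR (1 higher at an unadjusted p under 0.05). For 4 of them Set 1 stood apart. The log2 ratios of IWR-1 to DMSO in Sets 1, 2 and 3 of E+F- cells were 1.13, 0.13 and 0.12 for Scd1 and 0.83, 0.03 and -0.07 for Scd2. They were 0.47, -0.09 and 0.05 for Acaca, and 0.40, -0.19 and 0.03 for Stard4. Scd1 was at 51.7, 35.5 and 31.7 TPM in E+F- IWR-1, against 24.3, 35.7 and 31.1 TPM in E+F- DMSO, with overlapping groups. In all 3 Sets 13 members were lower and 2 higher, and 19.2% of all genes were lower.

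These 3 calls also depended on the pairing, which in E+F- cells set Sets 1 and 2 little apart: the deviations of their libraries correlated at 0.345 and 0.466 within the Set, and at up to 0.327 and 0.403 with a library of another Set. Without the Set block, and with 1 Set term shared by all populations, 0 members were called (edgeR; 3 and 5 lower at an unadjusted p under 0.05), and with limma on log2 TPM 9 were lower. Leaving out Set 1 of either treatment left 0 calls, DMSO Set 2 left Hsd17b7, IWR-1 Set 2 left Lbr and Hsd17b7, and without Set 3 of either treatment Lbr and Hsd17b7 kept their calls, Mvk lost its call and Ebp gained one. Mvk thus kept its call in 0 of these 6 cases, Lbr in 3 and Hsd17b7 in 4. Without all Set 3 libraries Mvk, Lbr and Hsd17b7 all lost their calls, and 1 other member, Ebp, was called. Of the pluripotency markers 4 of 5 were higher with IWR-1 in E+F- cells, and their sum was 299 to 977 TPM in E+F- IWR-1 and 83.3 to 378 TPM in E+F- DMSO. The 9 endoderm markers summed to 540 to 920 TPM in E+F- IWR-1 and 314 to 374 TPM in E+F- DMSO, with Apoe again nearly all of it, Foxa2 also higher with IWR-1 (2.66 ± 0.51, edgeR adjusted p = 0.00938) at 2.20 ± 1.08 TPM in E+F- IWR-1 and 0.38 ± 0.26 TPM in E+F- DMSO, and Afp listed at 0 in the 3 DMSO libraries. In Sets 1, 2 and 3 the 8 blood markers summed to 14.8, 29.4 and 583 TPM in E+F- IWR-1 and 8.67, 29.1 and 169 TPM in E+F- DMSO. Hbb-bh1 (1.67 ± 0.35, edgeR adjusted p = 0.0152) and Hba-x (1.68 ± 0.40, adjusted p = 0.03) were higher with IWR-1, mostly through Set 3. Hbb-bh1 was at 1.5, 9.83 and 338 TPM in E+F- IWR-1 and 1.3, 5.71 and 86.8 TPM in E+F- DMSO. Hba-x was at 0.85, 3.26 and 219 TPM in E+F- IWR-1 and 0.11, 2.47 and 62.25 TPM in E+F- DMSO. These 2 calls were not checked without single libraries. Of the 7 streak and presomitic markers, Msgn1, Mixl1 and Tbx6 were lower with IWR-1 in E+F- cells and Eomes and Mesp2 higher, and their sum was 538 to 737 TPM in E+F- IWR-1 and 718 to 1328 TPM in E+F- DMSO. Msgn1 was at 8.96 ± 4.94 TPM in E+F- IWR-1 and 177 ± 128 TPM in E+F- DMSO (-4.09 ± 0.24, edgeR adjusted p = 3.97e-05), and Mixl1 at 22.5 ± 9.21 TPM in E+F- IWR-1 and 119 ± 46.7 TPM in E+F- DMSO (-2.34 ± 0.36, adjusted p = 0.00332). The part of these shifts in the calls was not tested.

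Whether IWR-1 acted differently on the members in the 2 populations was tested as the difference of the effects, E+F+ minus E+F-. With edgeR 0 of 32 members passed, where 0.817% of all genes tested were called, 0.354% lower and 0.463% higher. At an unadjusted p under 0.05, 10 members were lower (a more negative effect in E+F+ cells) and 1 higher, against 13.4% of all genes in either direction, and DESeq2 called 3 lower, Mvd, Dhcr7 and Scd1. The median difference was -0.23 over the members and -0.00202 over all genes. The largest were Scd1 (-0.83 ± 0.24, adjusted p = 0.153), Mvd (-0.71 ± 0.15, adjusted p = 0.0682) and Dhcr7 (-0.65 ± 0.16, adjusted p = 0.0911). Hsd17b7 had the largest difference in the other direction (0.50 ± 0.22, adjusted p = 0.367). For Mvk the difference was -0.26 (95% interval -0.58 to 0.06), so that an equal effect in both populations and one larger in E+F+ cells both lie within the interval.

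In unsorted cells, the contrast that led to the choice of this pathway, the values are given without a test. Mvk was at 47.5, 46.7 and 43.6 TPM in unsorted IWR-1, against 103, 117 and 75.4 TPM in unsorted DMSO, a log2 fold change of -1.09 ± 0.11. Mvd was at 66.8, 65.3 and 52.4 TPM in unsorted IWR-1, against 180, 167 and 98.1 TPM in unsorted DMSO (-1.24 ± 0.11). Hsd17b7 was at 8.89, 12.7 and 10.6 TPM in unsorted IWR-1, against 25.8, 24.2 and 17.3 TPM in unsorted DMSO (-1.06 ± 0.16). These were the 3 largest fold changes. In all 3 genes the DMSO library of Set 3 was the lowest of the DMSO libraries. Fdps was at 325 ± 60.9 TPM with IWR-1 and 596 ± 160 TPM with DMSO, Hmgcs1 at 201 ± 23.1 TPM with IWR-1 and 352 ± 81.3 TPM with DMSO, and Sqle at 102 ± 5.65 TPM with IWR-1 and 162 ± 24.3 TPM with DMSO. In the fit 23 members were below 0 with an adjusted p under 0.05, and 0 above it, where 7.74% of all genes were called, 3.71% lower and 4.03% higher, and nothing is read from that count since the members were chosen on this contrast. The median was -0.71 over the members and 0.02 over all genes.

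By role, the fold changes in unsorted cells ran from -1.24 to -0.69 in 7 mevalonate genes with Ggps1 at 0.09, and from -1.06 to -0.35 in the 12 later enzymes. In the SREBP machinery Insig1 stood at -0.80, at 67.1 ± 11.01 TPM with IWR-1 and 117 ± 26.8 TPM with DMSO, and the other 6 genes at -0.19 to 0.19. The transport and fatty acid genes ran from -0.74 (Scd1) to -0.29 (Scd2). The median over the members was -0.90 in Set 1, -0.79 in Set 2 and -0.40 in Set 3. Set 3 thus showed the smallest change of the Sets in these cells. The markers also differed between the unsorted Sets: the streak and presomitic markers summed to 525, 215 and 38.9 TPM in unsorted IWR-1 and to 459, 68.6 and 97.7 TPM in unsorted DMSO. The pluripotency markers summed to 752, 183 and 394 TPM in unsorted IWR-1 and to 330, 108 and 266 TPM in unsorted DMSO. The endoderm markers, again nearly all Apoe, summed to 1204, 1002 and 609 TPM in unsorted IWR-1 and to 801, 532 and 397 TPM in unsorted DMSO. Both sums were higher with IWR-1 in every Set, and the part of these markers in the values of the members was not tested.

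**Figure D5:**
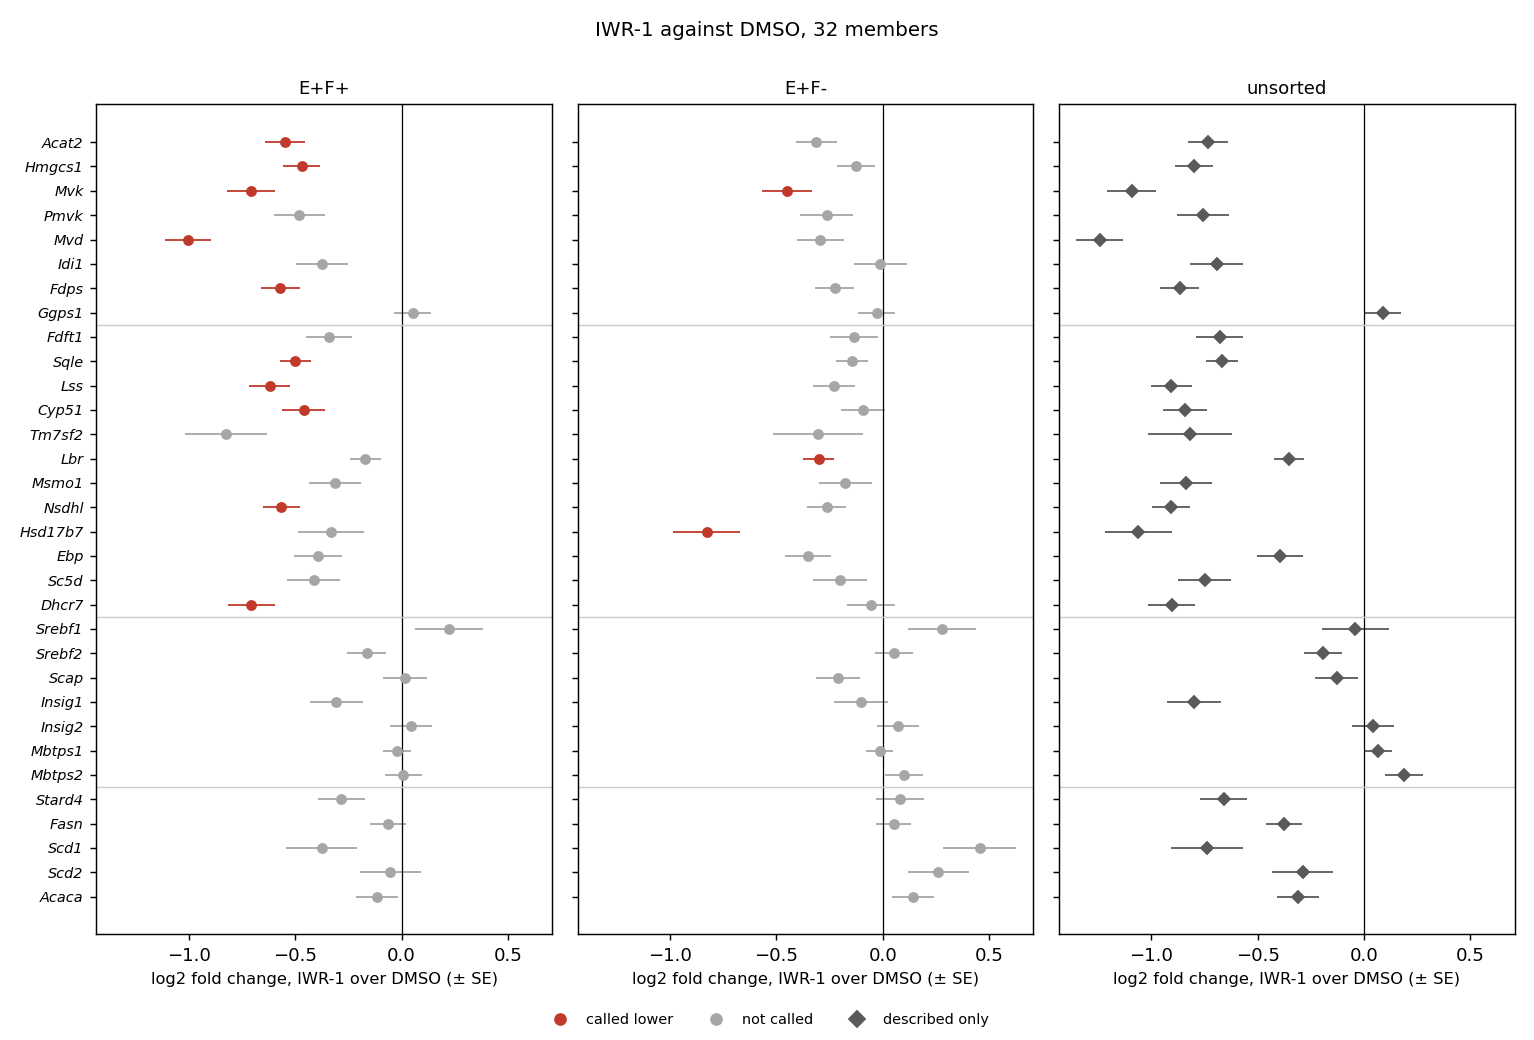
Log2 fold change ± SE of IWR-1 over DMSO for the 32 members in E+F+, E+F- and unsorted cells, with grey lines between the mevalonate genes, the later enzymes, the SREBP machinery and the other targets. Red points were called lower, grey points were not called, and dark diamonds are the unsorted values, given as a description. The enzymes lie left of 0 in each panel, apart from Ggps1 in E+F+ and unsorted cells, and the SREBP machinery lies near 0 except Insig1 in unsorted cells.

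The sorted populations were also set against unsorted cells under DMSO. These comparisons share the unsorted DMSO libraries with the contrast that chose Mvk and Mvd. Other members can move with these 2 genes. All values here are therefore a description, and nothing is read from the counts called. In E+F+ cells 1 member was higher than in unsorted cells and 2 were lower, where 10.6% of all genes tested were called, 4.7% higher and 5.85% lower, with a median of 0.11 over the 30 members other than Mvk and Mvd. Ebp was at 27.7, 25.6 and 18.8 TPM in E+F+ DMSO, against 51.7, 49.5 and 38.5 TPM in unsorted DMSO (-0.87 ± 0.17). Hsd17b7 was at 14.2, 11.7 and 12.8 TPM in E+F+ DMSO, against 25.8, 24.2 and 17.3 TPM in unsorted DMSO (-0.71 ± 0.19). Scd2 was at 781, 661 and 614 TPM in E+F+ DMSO, against 551, 451 and 384 TPM in unsorted DMSO (0.66 ± 0.20). Scd1 was at 99.2, 92.3 and 78.0 TPM in E+F+ DMSO, against 71.3, 62.8 and 40.5 TPM in unsorted DMSO (0.72 ± 0.26, not called). Ebp kept its call without any single library. Scd2 lost it without any of the 6 libraries or Set 3, and Hsd17b7 kept it in 1 of 6. Mvk and Mvd had log2 differences of -0.05 ± 0.16 and 0.10 ± 0.20.

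Of the 30 members other than Mvk and Mvd, 19 were lower in E+F- cells than in unsorted cells and 0 higher (edgeR; 1 higher at an unadjusted p under 0.05, and 1 with DESeq2, Ggps1), where 9.48% of all genes were called, 4.92% lower and 4.56% higher. The median over these 30 members was -0.89, against 0.01 over all genes. The 19 included 14 of the 18 enzymes other than Mvk and Mvd. Over all 32 members the fit gave 21 lower, and 15 to 22 when a single library was left out. A fit of only these groups gave 16, where Acat2, Cyp51, Tm7sf2, Scd1 and Acaca lost their calls. These counts include Mvk and Mvd. No call of a member in this comparison is read as a test, since the unsorted DMSO libraries served to choose the pathway. Lss was at 29.2, 28.3 and 31.5 TPM in E+F- DMSO, against 88.6, 85.1 and 55.7 TPM in unsorted DMSO (-1.40 ± 0.18). Sqle was at 81.9, 68.7 and 84.1 TPM in E+F- DMSO, against 182, 169 and 135 TPM in unsorted DMSO (-1.07 ± 0.13). Msmo1 was at 87.7, 71.1 and 78.8 TPM in E+F- DMSO, against 204, 239 and 160 TPM in unsorted DMSO (-1.37 ± 0.18). Nsdhl was at 28.6, 26.4 and 30.3 TPM in E+F- DMSO, against 64.6, 75.7 and 50.4 TPM in unsorted DMSO (-1.19 ± 0.16). In each of these every E+F- library lay below every unsorted library. Mvk and Mvd had log2 differences of -1.31 ± 0.16 and -1.50 ± 0.21.

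Genes that border the pathway were taken from 6 further lists. Of 12 other genes of fatty acid synthesis and NADPH supply, 4 were lower with IWR-1 in E+F+ cells and 0 higher, where 1.27% of all genes tested were lower. Acly, which supplies cytosolic acetyl-CoA, was at 207 ± 25.9 TPM in E+F+ IWR-1 and 291 ± 10.7 TPM in E+F+ DMSO (-0.52 ± 0.07, adjusted p = 0.00859). Mid1ip1, an activator of acetyl-CoA carboxylase, was at 63.6 ± 6.20 TPM in E+F+ IWR-1 and 124 ± 12.6 TPM in E+F+ DMSO (-0.99 ± 0.15, adjusted p = 0.0109). Me1, the malic enzyme that yields NADPH, was lower too (-0.38 ± 0.08, adjusted p = 0.0347), as was Acss2, acetyl-CoA synthetase (-0.67 ± 0.15, adjusted p = 0.047). Leaving out single E+F+ libraries kept the call of Acly in 2 of 6 cases and those of the other 3 genes in 0 of 6. In E+F- cells 1 of the 12, Elovl5, a fatty acid elongase, was lower (-0.30 ± 0.07, adjusted p = 0.0372, kept in 2 of 6 cases without a single library), where 3.02% of all genes were. Acss2 and Elovl5 were named after their values were seen. Between populations under DMSO 6 of 12 were higher in E+F+ cells, where 12.8% of all genes were, among them Mid1ip1 at 124 ± 12.6 TPM in E+F+ against 12.7 ± 4.14 TPM in E+F- cells (3.42 ± 0.32, adjusted p = 1.74e-05), Fads2, a desaturase, at 184 ± 9.12 TPM in E+F+ against 65.7 ± 1.29 TPM in E+F- cells (1.60 ± 0.18, adjusted p = 3.92e-05), Acly (1.11 ± 0.13) and Me1 (1.61 ± 0.23).

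The genes of LXR, the receptor of oxysterols, of its targets and of oxysterol enzymes, taken as 1 list, were measured at low levels. Of 8 tested, 2 were higher with IWR-1 in E+F+ cells and 0 lower, where 0.796% of all genes were higher. Abca1, which exports cholesterol, was at 3.65 ± 1.61 TPM in E+F+ IWR-1 and 1.19 ± 0.30 TPM in E+F+ DMSO (1.52 ± 0.24, adjusted p = 0.0131). Abcg1, a second exporter named after its values were seen, was at 4.32 ± 1.52 TPM in E+F+ IWR-1 and 1.66 ± 1.00 TPM in E+F+ DMSO (1.44 ± 0.32, adjusted p = 0.0438). Both calls were lost without any single E+F+ library. In E+F- cells 0 of 8 passed with edgeR, and 2 were higher with DESeq2. There 2 were also higher at an unadjusted p under 0.05, against 21.3% of all genes in either direction. Abcg1 was at 2.32 ± 1.45 TPM in E+F- IWR-1 and 1.05 ± 0.76 TPM in E+F- DMSO (1.22 ± 0.35, edgeR adjusted p = 0.0628). Between populations under DMSO, where 12.8% of all genes were higher and 13.8% lower, 2 were higher in E+F+ cells, Abca1 (1.84 ± 0.66, adjusted p = 0.0499, kept in 1 of 6 cases without a single library) and Lpcat3, a phospholipid acyltransferase (0.51 ± 0.10, adjusted p = 0.00216). The receptor gene Nr1h3 (-1.48 ± 0.33, adjusted p = 0.00437) and Cyp7b1, an oxysterol hydroxylase (-4.30 ± 0.79, adjusted p = 0.0012), were lower.

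Genes of sterol handling outside synthesis gave 0 of 13 calls with IWR-1 in E+F+ cells with edgeR and DESeq2 (3 lower at an unadjusted p under 0.05), and 2 lower in E+F- cells, where 3.02% of all genes were, Soat1, which esterifies cholesterol (-0.45 ± 0.09, adjusted p = 0.0143), and Acbd3, a Golgi protein (-0.36 ± 0.07, adjusted p = 0.0138). Between populations under DMSO 4 of these 13 were higher in E+F+ cells and 0 lower, where 12.8% of all genes were higher and 13.8% lower. One of the 4 was Scarb1, a receptor of high-density lipoprotein, at 81.0 ± 13.2 TPM in E+F+ DMSO and 17.8 ± 8.31 TPM in E+F- DMSO (2.32 ± 0.26, edgeR adjusted p = 3.92e-05). The 13 genes of the isoprenoid branches, which use the products of the mevalonate pathway for prenylation, dolichol and ubiquinone, gave 0 calls with IWR-1 in either sorted population with edgeR and DESeq2 (1 higher in E+F+ cells, 1 higher and 3 lower in E+F- cells at an unadjusted p under 0.05). Among 8 genes of sterol-regulated degradation and SREBP turnover Vcp, an ATPase that extracts proteins from membranes, was the 1 gene called with IWR-1 in the sorted cells, lower in E+F+ (-0.32 ± 0.06, adjusted p = 0.0198) and in E+F- cells (-0.24 ± 0.06, adjusted p = 0.0312). Without a single library of the population, the call of Vcp was kept in 0 of 6 cases in E+F+ and 2 of 6 in E+F- cells, that of Acbd3 in 2 and that of Soat1 in 4 of 6. The 8 genes of SREBP partner factors, subunits of NF-Y and Sp1 among them, gave 0 calls with IWR-1 in either sorted population with edgeR and DESeq2 (1 higher in E+F+ and 2 higher in E+F- cells at an unadjusted p under 0.05). Of all genes, 17.4% in E+F+ and 21.3% in E+F- cells had an unadjusted p under 0.05, in either direction.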

How the data were processed

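Total RNA of the 18 reaggregates was extracted with Trizol and made into unstranded TruSeq libraries, read as single ends on an Illumina HiSeq. According to the study's methods and the processing notes, base calls came from CASAVA 1.8.2, and reads were aligned with Bowtie 0.12.9 to RefSeq transcripts (mm10) and quantified with RSEM 1.2.3. The authors deposited expected counts per gene (estimated counts that need not be whole) and TPM. Expected counts were rounded to whole numbers for testing, and TPM served for levels. The 13 rows found only among the counts held 1.32% to 3.32% of the counts of a library.

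Genes were filtered by group with filterByExpr, scaled by TMM and tested with the quasi-likelihood test of edgeR 4.0.16 (R 4.3.3), with Benjamini-Hochberg adjustment over 13826 genes and a threshold of 0.05. IWR-1 was compared with DMSO within Sets of each population (6 residual degrees of freedom), and populations without a block (12). In the check of pairing, libraries of the same Set deviated together from their group means in each of the 3 populations (r of 0.34 to 0.523 in E+F+, 0.345 to 0.752 in E+F- and 0.636 to 0.741 in unsorted cells), though in E+F- cells Sets 1 and 2 correlated nearly as well with another Set (up to 0.327 and 0.403). DESeq2 1.42.0 and limma 3.58.1 on log2(TPM + 1) and log2(TPM + 0.1), other size factors, no filter, other blocks, only the groups compared, and leaving out libraries were the alternatives. No replicates of a group were alike within sampling noise (chi-square per degree of freedom 16.4 to 89). Intervals are at 95%, taken from the SE as for a normal distribution, and cover the spread between libraries. The test scripts were tested on simulated data.

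The members and lists were chosen with earlier results of these data known. Values in every library are given for Mvk, Mvd and the 4 members with the smallest adjusted p of each tested comparison, and for some other called members; up to 4 genes of each other list are named by smallest adjusted p, besides Axin2, Lef1, Eng and Kdr. Acss2, Elovl5, Abcg1 and Nkd1 were named after their values were seen. Promoters were taken from RefSeq.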

Additional observations from a re-analysis of the deposited data

Results flagged for a closer look

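Scd1, a stearoyl-CoA desaturase, had log2 ratios of IWR-1 to DMSO that were negative in all 3 Sets of E+F+ cells (mean -0.37) and of unsorted cells (-0.74) and positive in all 3 Sets of E+F- cells (0.46). In E+F- cells Set 1 carried most of that mean, with ratios of 1.13, 0.13 and 0.12 in Sets 1, 2 and 3. The difference between E+F+ and E+F- cells did not pass with edgeR (adjusted p = 0.153), and the difference between E+F- and unsorted cells was not tested. In TPM, Scd1 in Set 2 of E+F- cells was at 35.5 with IWR-1 and 35.7 with DMSO.

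Mid1ip1, an activator of acetyl-CoA carboxylase, differed between the populations in its response to IWR-1 (E+F+ minus E+F-, -1.39 ± 0.22, edgeR adjusted p = 0.0247), with a log2 fold change of -0.99 ± 0.15 in E+F+ cells and 0.40 ± 0.17 in E+F- cells. Nkd1, a feedback inhibitor of Wnt signalling, differed by 1.62 ± 0.28 (adjusted p = 0.0312), with -1.26 ± 0.20 in E+F+ cells and -2.88 ± 0.21 in E+F- cells. Each of these 2 differences kept its call in 4 of 12 cases when a single library was left out.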

How the results depend on the processing

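No called direction of a member, of the named genes bordering the pathway, or of Axin2, Lef1 and Nkd1 reversed under any alternative. Tcf7, the cell type markers and the remaining genes were not checked for sign. For the IWR-1 effect in E+F+ cells, 285 genes and 10 members (lower) were called. DESeq2 called 439 genes, a fit of only the groups compared 715 genes and 18 members, a fit without Set 3 116 genes, no replicate block 0 genes and 0 members, and a replicate block shared by all populations 9 genes and 0 members. Leaving out 1 library gave 0 to 50 genes and 0 to 2 members. In E+F- cells, 896 genes and 3 members (lower) were called. limma gave 1470 genes and 9 members on log2(TPM + 1) and 1463 and 9 on log2(TPM + 0.1), only the groups compared 259 and 0, no Set 3 545 and 1, no block 72 and 0, and the shared block 206 and 0. DESeq2 added 1 member higher. Leaving out 1 library gave 466 to 952 genes and 0 to 3 members. In unsorted cells, 1070 genes and 23 members became 13 and 3 without the block, 120 and 14 with the shared block, and 207 to 916 and 13 to 21 without 1 library. Nothing is read from these member counts, since the members were chosen on this contrast. For the difference of effects, 113 genes and 0 members became 327 and 3 with DESeq2, 201 genes with limma on log2(TPM + 1), 170 and 1 without the filter, 48 genes without Set 3, 4 without the block and 5 with the shared block, 1 member with only the groups compared, and 4 to 149 genes and 0 to 1 member without 1 library.

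Between E+F+ and E+F- cells, 1 member lower under DMSO became 2 with limma on either scale. Leaving out 1 library gave 2566 to 3086 genes under DMSO and 2021 to 2881 under IWR-1. For E+F+ against unsorted cells, 1459 genes became 2806 with Set as a block and 910 with limma on log2(TPM + 1). The 1 member higher became 3 with the block, 2 with DESeq2, and 0 with limma on either scale and without Set 3. Leaving out 1 library gave 408 to 1194 genes, 0 members higher and 1 to 2 lower. For E+F- against unsorted cells, 1311 genes became 2829 with the block and 630 with only the groups compared, 404 to 1201 without 1 library, and 0 members higher became 1 with DESeq2, limma on either scale and the block. Nothing is read from the member counts against unsorted cells. Under DMSO the r within a Set was 0.0977 to 0.235 between E+F+ and E+F- cells, and 0.1 to 0.367 between E+F+ and unsorted cells. In each Set this r exceeded that with another Set (up to 0.0895 and 0.129). Between E+F- and unsorted cells the r within a Set was -0.00822 to 0.44, and Set 1 correlated better with another Set (0.367). Under IWR-1 the r between E+F+ and E+F- cells was 0.19 to 0.291, again above that with another Set (up to 0.151). There the block added Lbr. The cause of these shifts was not tested. With 3 libraries a group, a fold change that missed the threshold is limited by the spread between libraries, not shown to be absent.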
